A study of Mus musculus with 6 samples.

Results

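The genes of fatty acid activation and oxidation were followed in neural stem cells of old and young mice, which can divide to make more stem cells or form neurons and glia. The set was a list of 41 named genes of the pathway, drawn up with earlier results of these data known. Each gene stood for its probe set (the group of array probes that reads its transcript) with the highest mean over the 6 arrays, among probe sets annotated with that gene alone. Of the 41 genes 39 had such a probe set, out of 18193 genes in all. Cpt1b shared its probe set with other symbols and Acsl1 was not analysed here. Of the 39, 36 lay above log2 4 on at least 3 arrays and were tested, while Acox3, Ehhadh and Abcd2 lay below that level on all 6.

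Total RNA was hybridised to 6 arrays, 1 sample per array, 3 of cells from old mice of 9 months and 3 of cells from young mice of 6 weeks. All mice were C57BL/6JRj, with no genetic change or treatment named for either age. No brain region, culture history or pooling of animals is stated in the labels. Nor is it stated that replicates came from separate animals, so p-values reflect the spread among these arrays alone, and that spread may be technical. By its title the series concerns how age is shared out when such cells divide, and the comparison of old with young cells asks which transcripts differ with age.

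Fatty acids are used in steps. An acyl-CoA synthetase first joins the acid to coenzyme A, the carnitine shuttle carries the acyl group into the mitochondrion, and a cycle of dehydrogenase, hydratase, dehydrogenase and thiolase reactions then cuts off acetyl-CoA, with electrons leaving through the electron transfer flavoprotein. Peroxisomes shorten very long and branched chains by a similar cycle, and the coactivator Ppargc1a (PGC-1α) works with nuclear receptors at many genes of the pathway. In the adult brain, neural stem cells and astrocytes are known to oxidise fatty acids, and oxidation through Cpt1a has been tied to the quiescence of neural stem cells.

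Promoters of some called members are shown first, as a description. Sequences are from RefSeq (assembly GRCm38.p6), which held promoter windows for 33 of the 41 genes. Hadha and Hadhb, which encode the subunits of the mitochondrial trifunctional protein, both rose in old cells and are transcribed away from each other from starts 273 bases apart on chromosome 5. The 250 bases before the start of Hadhb (chr5:30155003-30155252, plus strand) lie between these starts. Acadm (chr3:153944644-153944893, minus strand) and Echs1 (chr7:140116422-140116671, minus strand) rose, while Cpt1c (chr7:44974852-44975101, minus strand) and Acsl6 (chr11:54303574-54303823, plus strand) fell. These are the called members whose windows hold the nuclear receptor core motif AGGTCA. Each is printed 5′ to 3′ on the gene's strand, as the 250 bases before an annotated start, with the motif on either strand in capitals.
Hadhb: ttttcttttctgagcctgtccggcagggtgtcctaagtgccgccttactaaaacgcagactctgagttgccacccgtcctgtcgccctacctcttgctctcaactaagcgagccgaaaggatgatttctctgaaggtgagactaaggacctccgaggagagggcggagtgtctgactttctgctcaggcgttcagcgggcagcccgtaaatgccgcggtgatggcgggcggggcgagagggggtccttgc
Acadm: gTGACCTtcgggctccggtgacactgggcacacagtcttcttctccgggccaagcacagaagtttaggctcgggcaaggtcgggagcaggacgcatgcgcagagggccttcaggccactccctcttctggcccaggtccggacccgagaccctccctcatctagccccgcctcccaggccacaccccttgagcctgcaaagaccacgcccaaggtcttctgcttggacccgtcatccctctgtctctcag
Echs1: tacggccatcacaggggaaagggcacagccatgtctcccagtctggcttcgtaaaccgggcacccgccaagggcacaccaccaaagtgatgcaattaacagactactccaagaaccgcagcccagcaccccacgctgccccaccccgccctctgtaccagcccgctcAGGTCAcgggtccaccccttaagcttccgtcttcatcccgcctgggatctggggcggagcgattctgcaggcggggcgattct
Cpt1c: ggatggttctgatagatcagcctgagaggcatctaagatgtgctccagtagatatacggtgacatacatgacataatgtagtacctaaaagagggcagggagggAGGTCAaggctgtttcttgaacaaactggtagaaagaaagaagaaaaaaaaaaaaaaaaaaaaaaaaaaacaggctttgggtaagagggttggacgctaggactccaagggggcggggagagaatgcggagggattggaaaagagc
Acsl6: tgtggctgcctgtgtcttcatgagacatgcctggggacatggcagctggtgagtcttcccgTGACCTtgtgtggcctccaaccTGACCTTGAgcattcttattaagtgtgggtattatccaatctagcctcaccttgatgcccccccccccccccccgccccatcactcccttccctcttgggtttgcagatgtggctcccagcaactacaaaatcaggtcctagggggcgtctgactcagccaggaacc
The motif AGGTCA was searched on both strands of windows from 250 bases before to 50 after each start. It was found in 6 of 37 windows of member genes, 16.2%, against 16.3% of all 32851 windows. Besides the 4 genes printed for it, Cpt1a and Acadvl held it. The longer TCAAGGTCA, known from estrogen-related receptors and containing the shorter motif, was found in 1 window of the members, that of Acsl6, and in 0.423% of all windows. This match lies 167 bases before the start of Acsl6, on the opposite strand. The direct repeat of the core motif with 1 base of any kind between its copies, bound by PPAR receptors, and the cAMP response element TGACGTCA were found in 0 of the 37 windows, against 0.0396% and 1.79% of all. Matches of letters are a description and do not show binding.

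The 6 arrays held 45101 probe sets each, and 38.3 to 40.4% of these lay at the shared lowest value of log2 2.14. Over the 19858 probe sets kept, pairs of old arrays had r = 0.9945 to 0.9953, pairs of young arrays 0.9788 to 0.9934, and old with young arrays 0.9155 to 0.9438. Of 10 markers of neural stem cells and radial glia 9 lay above the filter, among them Nes, Sox2, Sox1 and Pax6, and Prom1 did not. Of the 9, 3 fell and 1 rose, where 18.5% of all tested genes fell and 22.0% rose. Nes, an intermediate filament of stem cells, fell by 0.46 on the log2 scale (limma adjusted p = 0.00746), Sox1, a transcription factor, fell by 0.73 (adjusted p = 0.000402) and Msi1, an RNA-binding protein, rose by 0.52 (adjusted p = 0.00712). The third to fall, Hes5, a target of Notch signalling, passed the filter through the young arrays alone, which fixed its direction (2.73, 2.42 and 2.14 on old against 7.91, 7.91 and 7.52 on young arrays). All 8 markers of microglia and all 6 of endothelium lay below log2 4 on every array, as did 7 of 8 of pericytes and fibroblasts, the other being Acta2, which fell by 1.33 (adjusted p = 0.0419). The 18 hybridisation control probe sets, which read RNA added at a fixed amount, averaged 12.28 ± 0.098 on old and 13.24 ± 0.28 on young arrays (log2, SD, n = 3 each). Their difference of -0.96 ran along with every comparison here (exact permutation p = 0.1, two-sided, the smallest that 3 against 3 arrays can give), and its part in them was not tested. In cells measured in bulk, fewer cells of a type and less RNA per cell cannot be told apart.

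More members were higher than lower in old cells. The list was drawn up with earlier results of these data known, so its shares are a description and not a test. By limma at an adjusted p under 0.05 over all kept probe sets, 14 of the 36 tested members rose, 38.9%, where 22.0% of all 10050 tested genes and 20.1% of all probe sets did. Those that fell numbered 2, or 5.56%, where 18.5% of all genes and 16.5% of all probe sets did. The genes that rose were Cpt2, Crat, Acsl5, Acsbg1, Acadm, Acadsb, Etfa, Etfdh, Hadha, Hadhb, Echs1, Decr1, Decr2 and Ppargc1a, and those that fell were Cpt1c and Acsl6. The median change of the 36 was 0.18 on the log2 scale, old minus young, against 0.01 over all tested genes, and 28 of 36 were above 0. The arrays of the ages did not overlap for 25 of the 36, where this held for 60.0% of all genes. Most of the rises were small, with 9 of the 14 under 0.5 on the log2 scale.

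**Figure D1:**
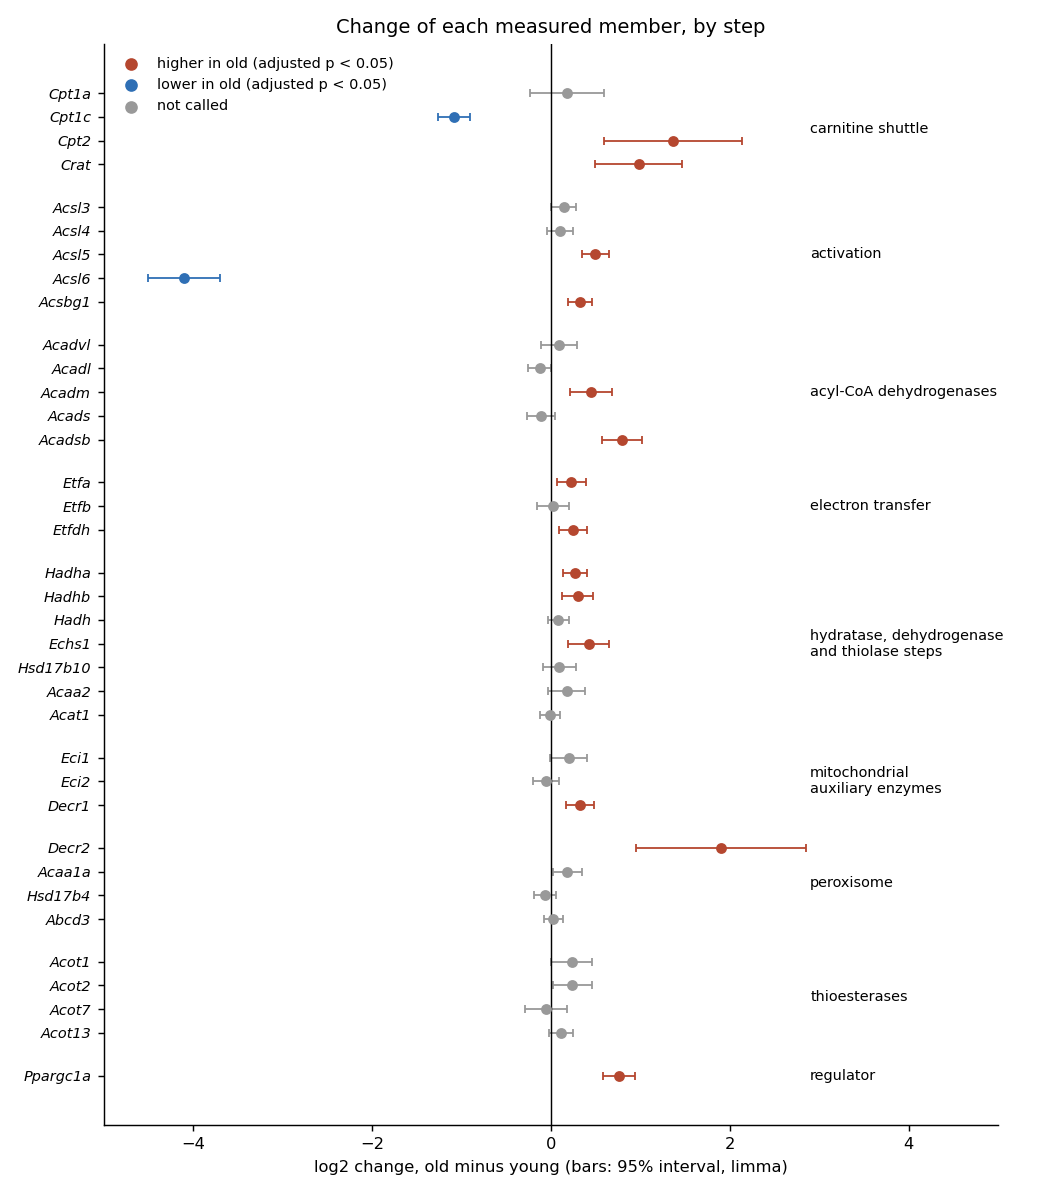
Change of each of the 36 tested members in log2 units, old minus young (points), with the 95% interval of limma (bars), ordered by step of the pathway. Red marks members higher and blue members lower in old cells at an adjusted p under 0.05. Acsl6 at -4.11 and Cpt1c at -1.09 stand to the left, and Decr2 at 1.90 is the farthest to the right.

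Calls near the threshold depended on single arrays. Without old replicate 2 there were 6 rises, or 16.7% of members where 14.3% of all probe sets rose, and without old replicate 3 there were 6, or 16.7% where 13.9% did. At an adjusted p under 0.01 there were 4, or 11.1% against 10.8%. In these fits the share of members was thus near that of all probe sets, and the excess of rises rests on calls near the threshold. Leaving out another array gave 11 to 13 rises, or 30.6 to 36.1% against 15.1 to 19.9%. The falls of Cpt1c and Acsl6 and the rises of Acsl5, Acsbg1, Acadsb and Ppargc1a passed in every fit with 1 array left out and under every other alternative run for single members. Decr1 also passed with any 1 array left out. The only probe set of Acadsb ends in _x_at and may read several transcripts, so Acadsb was not tested where such probe sets were left out. Without the filter on dim probe sets 8 calls were lost, those of Cpt2, Crat, Acadm, Decr2, Echs1, Etfa, Etfdh and Hadhb.

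**Figure D2:**
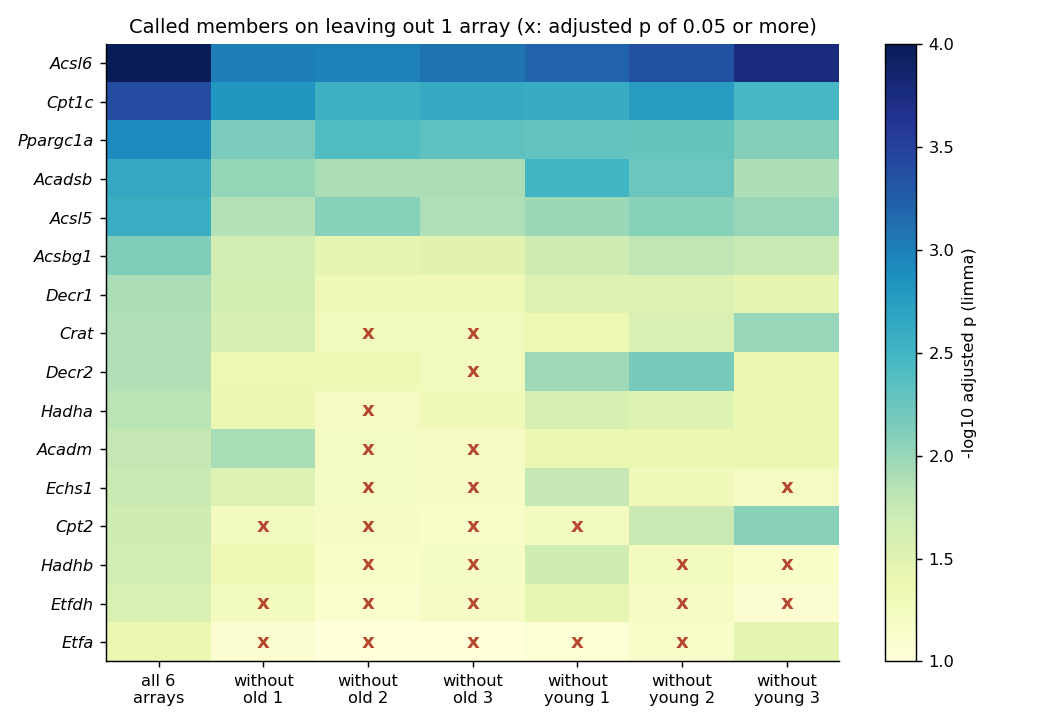
Adjusted p of limma, as its negative log10 (colour), for the 16 called members (rows) with all 6 arrays and with each array left out (columns). A red x marks a fit in which the adjusted p was 0.05 or more. The members at the top have no x, and Etfa and Etfdh at the bottom have 5 each.

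In the carnitine shuttle, 2 of 4 tested genes rose and 1 fell. Cpt1a, the enzyme of the outer membrane that controls entry, stood at 9.94, 10.14 and 9.61 on the old arrays and at 9.74, 9.88 and 9.52 on the young arrays (log2). Its arrays overlapped, and the change of 0.18 ± 0.17 (SE) did not pass (adjusted p = 0.424), with a 95% interval of -0.23 to 0.60. Cpt1c, the isoform of the endoplasmic reticulum found mainly in neurons, stood at 10.78, 10.95 and 10.97 on the old arrays and at 12.04, 11.93 and 11.99 on the young arrays. Every old array lay below every young array, and the gene fell by 1.09 on the log2 scale (SE 0.070, limma adjusted p = 0.000386), a level 2.12-fold lower. The log2 difference of Cpt1c minus Cpt1a within an array changed by -1.27, old minus young, with every old array below every young array (exact permutation p = 0.1, two-sided, the smallest possible). It was 1 of 4 such pairs compared, and all 4 had an adjusted p of 0.1.

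Cpt2, the inner membrane enzyme that turns acylcarnitine back into acyl-CoA, stood at 8.90, 8.97 and 9.08 on the old arrays and at 7.61, 7.01 and 8.24 on the young arrays (log2). The young arrays were spread widely and all lay below the old ones. Cpt2 rose by 1.36 ± 0.31 (SE, limma adjusted p = 0.0209), or 2.57-fold. The call was lost without any of the old arrays or young replicate 1, with values of 1.31 to 1.41 and adjusted p of 0.0568 to 0.0721. Crat, the carnitine acetyltransferase that buffers acetyl-CoA, stood at 9.47, 9.83 and 9.81 on the old arrays and at 8.65, 8.43 and 9.08 on the young arrays. It rose by 0.98 ± 0.20 (SE, adjusted p = 0.0138), or 1.98-fold, with no overlap. Without old replicate 2 the change was 0.92 (adjusted p = 0.0525) and without old replicate 3 it was 0.93 (adjusted p = 0.0526).

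**Figure D3:**
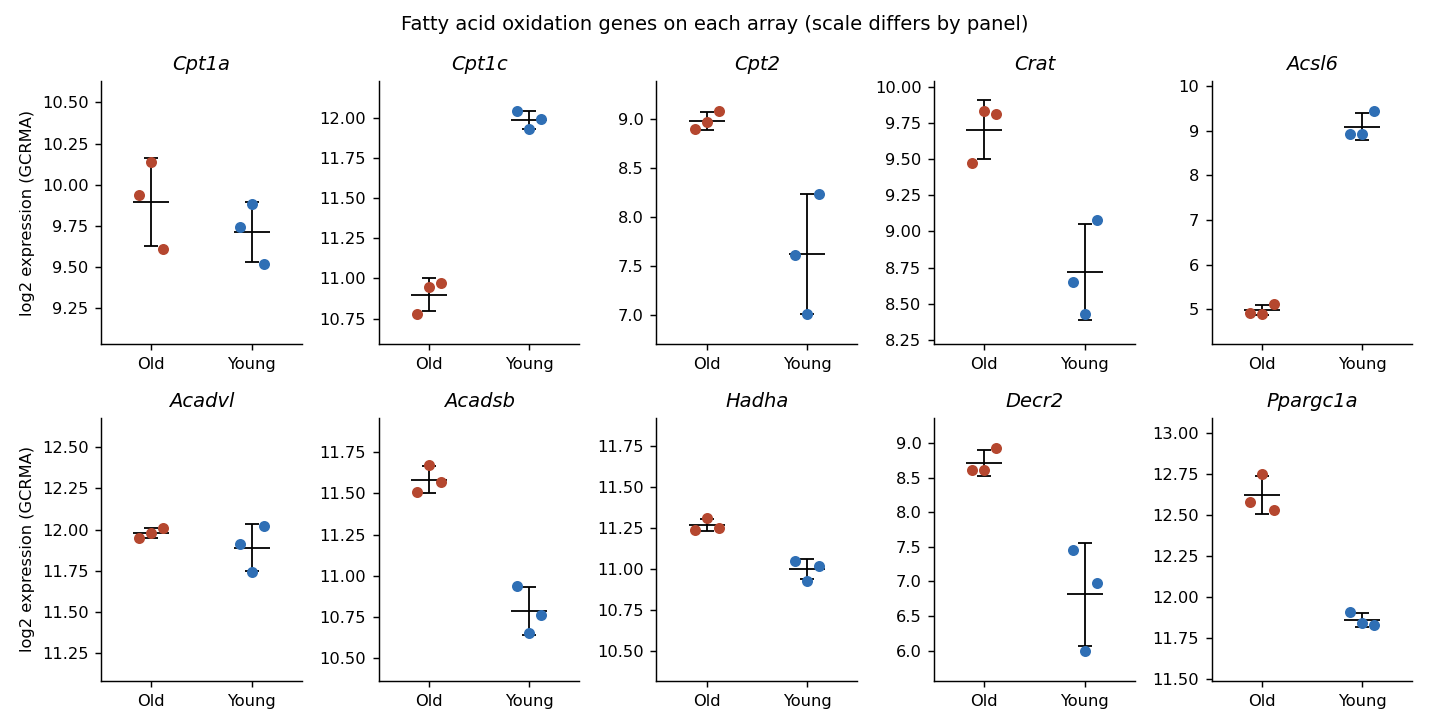
Levels of 10 members in log2 units of GCRMA expression on each array (points), old on the left and young on the right of each panel, with the mean and SD of 3 arrays (black). The scale differs between panels. Old and young arrays are apart for 8 of the 10 genes, and overlap for Cpt1a and Acadvl.

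Among the genes that activate fatty acids, isoforms moved in opposite directions. Acsl6, the long-chain acyl-CoA synthetase of brain that favours docosahexaenoic acid, stood at 4.93, 4.90 and 5.12 on the old arrays and at 8.92, 8.92 and 9.43 on the young arrays (log2). It had the largest change of the 36 members and fell by 4.11 on the log2 scale (SE 0.16, limma adjusted p = 8.28e-05), a level 17.2-fold lower, though its old values lay close to background, where the size of a change is uncertain. Its other probe set fell by 2.78 (adjusted p = 0.000224), with an old mean of 3.92, below log2 4. Acsl5, an isoform of the mitochondrial outer membrane and endoplasmic reticulum, averaged 11.67 ± 0.069 in old and 11.17 ± 0.055 in young cells (SD, n = 3 each). It rose by 0.50 ± 0.059 (SE, limma adjusted p = 0.00263). The difference of Acsl6 minus Acsl5 within an array rests on the same dim values, and no size is given for it. Acsbg1, a synthetase for very long chains known from astrocytes, rose by 0.32 ± 0.053 (adjusted p = 0.0076). Acsl3, an isoform of the endoplasmic reticulum and lipid droplets, had a change of 0.14 (adjusted p = 0.0984) at its brightest probe set and rose by 0.77 at another (adjusted p = 0.0085). Acsl4, which favours arachidonic acid, had a change of 0.10 (adjusted p = 0.22).

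Some markers of other cells also differed between the ages. The counts below stand beside all 10050 tested genes, of which 22.0% rose and 18.5% fell in limma. Of 10 markers of neuroblasts and neurons 5 lay above the filter, of which 4 fell and 0 rose. The log2 of the summed level of all 10 ranged from 13.84 to 13.88 on old and from 14.05 to 14.07 on young arrays. This sum mainly reads Map2, the brightest of the markers, which was not called. Stmn2, Rbfox3 and Syt1 lay below log2 4 on every array. Snap25, among the 4, passed the filter through the young arrays alone, which fixed its direction. Tubb3, also among the 4, could not have passed without its young arrays, which makes its direction uninformative as well. Tubb3 stood at 4.06, 3.46 and 3.98 on old against 9.62, 9.30 and 9.58 on young arrays, while Map2 stood at 13.81 to 13.86 on old and 13.68 to 13.75 on young arrays. Dlx2 fell by 3.71 (limma adjusted p = 0.000102) and Elavl3 by 3.17 (adjusted p = 0.00367), both above log2 4 on every array. The old mean of Elavl3 was dim, at 5.86. Of 9 measured markers of the oligodendrocyte lineage 6 were tested, of which 4 fell and 0 rose, with log2 sums of 14.20 to 14.31 on old and 14.28 to 14.37 on young arrays, and Sox10, Mbp and Mog below log2 4 throughout. Of these 4, Nkx2-2 passed through the young arrays alone (2.26, 2.17 and 2.34 on old against 10.56, 10.46 and 10.51 on young arrays). Of 10 astrocyte markers, all above the filter, 4 rose and 2 fell, with log2 sums of 16.10 to 16.17 on old and 15.98 to 15.99 on young arrays. These sums mainly read the bright Glul, Slc1a3 and Aldoc, which were not called. S100b rose by 2.93, Aqp4 by 2.71, Gja1 by 1.36 and Aldh1l1 by 0.86, while Slc1a2 fell by 0.64 and Fgfr3 by 0.59. Aqp4 could not have passed the filter without its old arrays, so its direction is uninformative. Of 5 markers of ependyma 4 were tested, with log2 sums of 10.9506 to 10.9997 on old and 10.5719 to 10.9467 on young arrays and Tmem212 below log2 4 throughout. Rarres2 rose by 0.55 (limma adjusted p = 0.00657) and Ccdc153 fell by 1.69 (adjusted p = 0.0189). Foxj1 passed the filter through the old arrays alone, which fixed its direction. It stood at 5.77, 5.36 and 6.3 on old against 3.54, 2.91 and 3.63 on young arrays. The part of these cells in the changes of Cpt1c, Acsl6 and Acsbg1 was not tested.

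Of the 5 acyl-CoA dehydrogenases, which start each turn of the cycle on chains of different length or branching, 2 rose and 0 fell. Acadsb, which acts on the branched chain from isoleucine, stood at 11.51, 11.67 and 11.57 on the old arrays and at 10.94, 10.65 and 10.76 on the young arrays (log2). It rose by 0.80 ± 0.091 (SE, limma adjusted p = 0.00233), or 1.74-fold, with no overlap. Acadm, for medium chains, rose by 0.45 ± 0.095 (adjusted p = 0.0172), a call lost without old replicate 2 (0.40, adjusted p = 0.0601) or old replicate 3 (0.41, adjusted p = 0.062). Acadvl, for very long chains, stood at 11.95, 11.98 and 12.01 on the old arrays and at 11.91, 11.74 and 12.02 on the young arrays. Its arrays overlapped, and its change of 0.09 did not pass (adjusted p = 0.433, 95% interval -0.12 to 0.29). Acadl, for long chains, had a change of -0.13 (adjusted p = 0.113) and Acads, for short chains, one of -0.11 (adjusted p = 0.203). Set against these within each array, Acadm was higher by 0.56 relative to Acads and by 0.36 relative to Acadvl in old cells, with no overlap between the ages (exact permutation p = 0.1 each, the smallest possible).

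Electrons from these dehydrogenases pass to the flavoprotein of Etfa and Etfb, and from there through Etfdh to ubiquinone. Etfa rose by 0.23 ± 0.064 (SE, limma adjusted p = 0.0408) and Etfdh by 0.25 ± 0.061 (adjusted p = 0.0277), while Etfb had a change of 0.02 (adjusted p = 0.845). The call of Etfa was lost on leaving out any array except young replicate 3 (0.18 to 0.25, adjusted p = 0.071 to 0.123). That of Etfdh was lost on leaving out any array except young replicate 1 (0.21 to 0.27, adjusted p = 0.0538 to 0.0811).

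In the later steps of the mitochondrial cycle 3 of 7 genes rose and 0 fell. Hadha, the α subunit of the trifunctional protein, stood at 11.24, 11.31 and 11.25 on the old arrays and at 11.05, 10.93 and 11.02 on the young arrays (log2). Every old array lay above every young array, and the gene rose by 0.27 ± 0.055 (SE, limma adjusted p = 0.0152), or 1.21-fold. Its partner Hadhb, the β subunit with which it shares the printed sequence between their starts, rose by 0.30 ± 0.0695 (adjusted p = 0.0223) and by 0.26 at its other probe set (adjusted p = 0.0416). Echs1, the hydratase for short chains, rose by 0.42 ± 0.093 (adjusted p = 0.0194). Without old replicate 2 the calls of Hadha (0.25, adjusted p = 0.0587), Hadhb (0.26, adjusted p = 0.0723) and Echs1 (0.37, adjusted p = 0.0644) were lost. Hadhb and Echs1 also lost theirs without old replicate 3 (0.31 and 0.41, adjusted p = 0.0646 and 0.066) and young replicate 3 (0.27 and 0.37, adjusted p = 0.069 and 0.0592), and Hadhb without young replicate 2 (0.28, adjusted p = 0.0553).

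The other enzymes of these steps did not pass at their brightest probe sets. Hadh, the 3-hydroxyacyl-CoA dehydrogenase, had a change of 0.08 (adjusted p = 0.214) there and rose by 0.26 at another probe set (adjusted p = 0.0208). Hsd17b10, a dehydrogenase that also serves in the processing of mitochondrial transfer RNA, had one of 0.09 (adjusted p = 0.37), and the thiolase Acaa2 one of 0.18 (adjusted p = 0.153). Acat1, the acetoacetyl-CoA thiolase, had one of -0.01 (adjusted p = 0.926), and its dimmest kept probe set fell by 0.25 (adjusted p = 0.0372).

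Unsaturated chains need further enzymes. Decr1, the 2,4-dienoyl-CoA reductase of the mitochondrion, rose by 0.32 ± 0.062 (SE, limma adjusted p = 0.0128), and by 1.59 at its dimmer probe set (adjusted p = 0.00162). Decr2, the reductase of the peroxisome, stood at 8.61, 8.61 and 8.93 on the old arrays and at 7.46, 6.00 and 6.98 on the young arrays (log2). All old arrays lay above all young ones, which were spread over more than 1 log2 unit. Decr2 rose by 1.90 ± 0.38 (SE, adjusted p = 0.0139), or 3.74-fold, a call lost without old replicate 3 (1.80, adjusted p = 0.053). The isomerases Eci1 (0.20, adjusted p = 0.121) and Eci2 (-0.05, adjusted p = 0.496) did not pass.

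Decr2 was the 1 gene called among the 4 tested genes of the peroxisome. The thiolase Acaa1a had a change of 0.18 (adjusted p = 0.0733), the multifunctional enzyme Hsd17b4 one of -0.07 (adjusted p = 0.332) and the transporter Abcd3 one of 0.03 (adjusted p = 0.635). Ehhadh, the other multifunctional enzyme, was at 2.14 on all 6 arrays. Acox3, an oxidase for branched chains, lay between 2.14 and 2.18, and the transporter Abcd2 at 2.48, 2.67 and 2.67 on the old arrays against 3.15, 2.66 and 2.67 on the young arrays, all near background. Of the thioesterases, which release the acid from coenzyme A, 0 of 4 passed in limma and 1 had an unadjusted p under 0.05. This was the mitochondrial Acot2, with a change of 0.24 (adjusted p = 0.0817). The cytosolic Acot1 had one of 0.23 (adjusted p = 0.106), Acot13 one of 0.12 (adjusted p = 0.141) and Acot7, a cytosolic enzyme of brain, one of -0.06 (adjusted p = 0.651). Acot1 and Acot2 are close paralogs, and probes may read both.

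Ppargc1a, the coactivator, stood at 12.58, 12.75 and 12.53 on the old arrays and at 11.91, 11.84 and 11.83 on the young arrays (log2). Every old array lay above every young array. The gene rose by 0.76 ± 0.072 (SE, limma adjusted p = 0.00123), or 1.70-fold. Its other 4 probe sets rose as well, by 0.75, 0.88, 1.20 and 1.24, with adjusted p of at most 0.00113. Across the members, 12 had more than 1 kept probe set. Of the 21 probe sets beyond the brightest ones 8 rose and 2 fell, where 20.1% of all kept probe sets rose and 16.5% fell. The 8 include the 4 of Ppargc1a. The kept probe sets of 0 members disagreed in sign at an unadjusted p under 0.05.

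**Figure D4:**
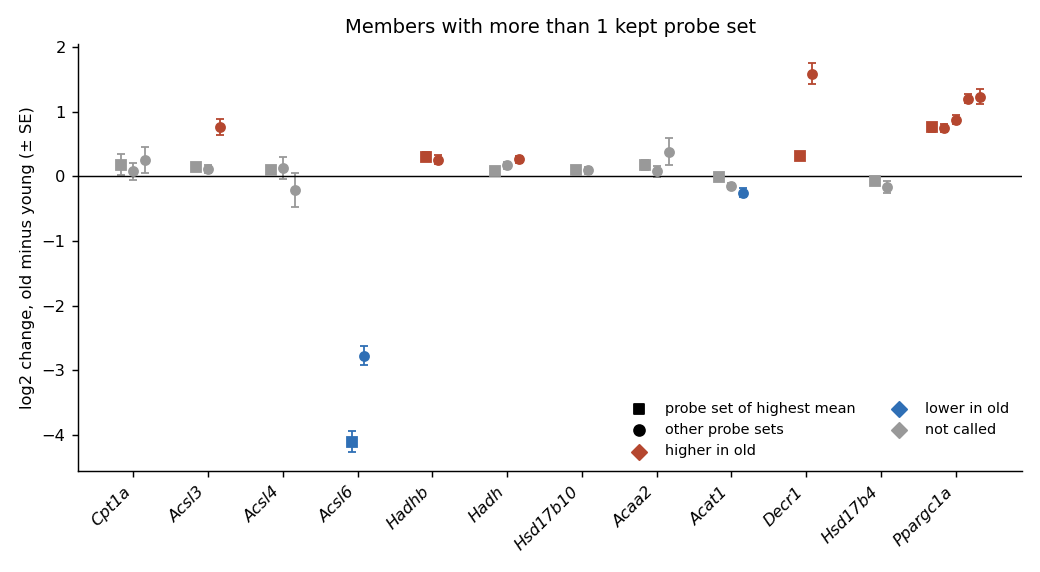
Change in log2 units, old minus young, of each kept probe set of the 12 members with more than 1, with the standard error of limma (bars). Squares are the probe sets of highest mean and circles the others, with red for higher, blue for lower in old cells at an adjusted p under 0.05 and grey for not called. All 5 probe sets of Ppargc1a lie between 0.75 and 1.24, while those of Decr1 lie at 0.32 and 1.59.

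Other genes of the pathway were then compared in 7 lists. These lists were also drawn up with earlier results of these data known, so their shares are a description. They held 97 genes, of which 62 were tested. Of these 32 rose and 8 fell in limma, 51.6% and 12.9%, where 22.0% and 18.5% of all tested genes did, and their median change was 0.35 against 0.01. In the list of further mitochondrial oxidation, which holds mainly enzymes for branched-chain amino acids, propionate and acyl chains, 15 of 19 rose and 1 fell, with a median of 0.53. Acot11, a thioesterase, rose by 2.39 (adjusted p = 0.000504), Acsf2, an acyl-CoA synthetase, by 1.16 (adjusted p = 0.000366) and Mmut, the methylmalonyl-CoA mutase, by 0.60 (adjusted p = 0.00216). The 1 that fell was Acss1, which activates acetate in the mitochondrion, with a change of -1.32 (adjusted p = 0.000629).

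Of 12 tested genes in further peroxisomal oxidation 5 rose and 1 fell. The coenzyme A hydrolase Nudt7 rose by 3.17 (limma adjusted p = 0.00256). Its young mean of 5.37 was dim, which makes the size uncertain, and its other probe sets lay under the filter. Its relative Nudt19 rose by 0.56 (adjusted p = 0.00562). Crot, the carnitine octanoyltransferase that exports shortened chains, rose by 0.61 (adjusted p = 0.00171) and Pex11a, which acts in peroxisome division, by 0.53 (adjusted p = 0.0105). The reductase Pecr, named after its values were seen as the 1 that fell, had a change of -0.71 (adjusted p = 0.034), and this call was lost on leaving out any array except old replicate 3 (-0.60 to -0.78, adjusted p = 0.060 to 0.0998). Among genes of ketone bodies 2 of 4 rose and 0 fell. Bdh1, the β-hydroxybutyrate dehydrogenase, stood at 9.87, 10.33 and 10.22 on the old arrays and at 6.14, 5.17 and 4.89 on the young arrays (log2). The ages lay far apart, and Bdh1 rose by 4.74 (limma adjusted p = 0.000564), though its young values were dim, which makes the size uncertain. Oxct1, which commits ketone bodies to oxidation, rose by 0.33 (adjusted p = 0.00959). Of 10 genes of uptake and acyl-CoA binding 3 rose and 0 fell, with the transport protein Slc27a1 (FATP1) at 0.78 (adjusted p = 0.000758). The acyl-CoA binding proteins Acbd3 (0.25, adjusted p = 0.0235) and Acbd5 (0.28, adjusted p = 0.024) each lost the call on leaving out any 1 of 4 arrays. These were old replicates 2 and 3 and young replicate 3 for both, old replicate 1 for Acbd3 and young replicate 2 for Acbd5, with adjusted p of up to 0.082 for Acbd3 and 0.0777 for Acbd5. The mean of the probe sets of Acbd3 changed by 0.72.

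The regulators did not move in 1 direction. Their list held PPAR and other nuclear receptors, coactivators, corepressors such as Nrip1, and factors of mitochondrial genes and DNA. Of its 8 tested genes 2 rose and 4 fell, with a median of -0.16, and no PPAR was among the 8. Rxra, the partner receptor of the PPARs, rose by 0.82 (limma adjusted p = 0.00156). The other that rose was the corepressor Nrip1, named after its values were seen (0.25, limma adjusted p = 0.0122). Esrrb, an estrogen-related receptor, had a change of -2.59 (adjusted p = 0.00423). Its old mean of 4.64 lay close to background, so the size is uncertain, and its other probe sets were at 2.14 on all 6 arrays. Nrf1, a transcription factor of mitochondrial genes, had a change of -2.03 (adjusted p = 0.0117, and 0.0605 without the filter). Tfam, which maintains mitochondrial DNA, had one of -0.36 (adjusted p = 0.00624). The other kept probe sets of Nrf1 had smaller changes of -0.64 (adjusted p = 0.0483) and -0.39 (adjusted p = 0.412, not called), and the mean of its probe sets changed by -1.02. The other that fell was the coactivator Pprc1, named after its values were seen (-0.51, limma adjusted p = 0.0141). The PPAR receptors themselves, Ppara, Ppard and Pparg, lay below log2 4 on all 6 arrays, as did the coactivator Ppargc1b. Of the 3 tested PPAR target genes outside oxidation, Txnip, a regulator of thioredoxin and glucose uptake, rose by 2.03 (adjusted p = 0.000289), Plin2, a coat protein of lipid droplets, rose by 1.21 (adjusted p = 0.00894) and Hilpda, an inhibitor of droplet lipolysis, fell by 0.49 (adjusted p = 0.00283). Of the list's other 7 genes 6 had a probe set, and these lay under the filter.

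In the list of lipid droplet lipolysis, which also holds genes that make triglyceride, 3 of 6 tested genes rose and 1 fell. Abhd5, the activator of the triglyceride lipase, rose by 0.52 (limma adjusted p = 0.00823), and by 0.97 as the mean of its probe sets. G0s2, the inhibitor of that lipase, fell by 0.74 on the log2 scale (adjusted p = 0.00558). The lipase Pnpla2 itself rose by 0.77 (adjusted p = 0.0376) and Dgat1, which makes triglyceride, by 0.38 (adjusted p = 0.0415). Both of these calls were lost without any of the old arrays or young replicate 1. Over all alternatives run, Pnpla2 ranged from 0.55 to 0.93 with adjusted p of up to 0.143, and Dgat1 from 0.27 to 0.92 with adjusted p of up to 0.135.

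**Figure D5:**
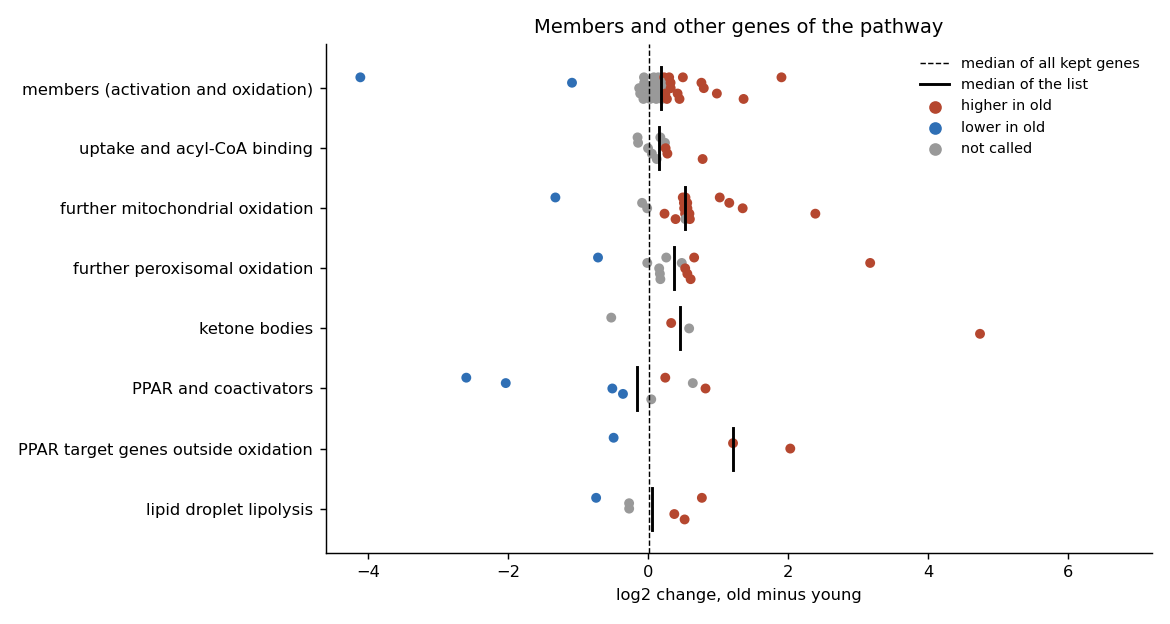
Change in log2 units, old minus young, of the tested members and of the tested genes in 7 further lists (points, spread vertically only to be seen), with the median of each list (black bar) and of all tested genes (dashed line, 0.01). Red marks genes higher and blue genes lower in old cells at an adjusted p under 0.05. The points of further mitochondrial oxidation gather right of 0 around a median of 0.53, and those of the PPAR list lie on both sides.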

How the data were processed

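Each array was deposited as 1 column of log2 values, 1 per probe set, and the authors used GCRMA per the submitters' processing notes (the version and chip definition are not stated there). Their range shows the log2 scale. RNA was extracted with a NucleoSpin XS kit and labelled with biotin, per the labels' protocols. GCRMA normalizes between arrays and compresses dim probe sets towards a floor, so changes out of it are uncertain in size. The number of arrays limits the precision.

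After 64 control probe sets were left out, 34945 of 45037 probe sets had 1 gene symbol and 932 several, by the platform annotation updated through RefSeq (GRCm38.p6). Those above log2 4 on at least 3 of 6 arrays were kept (19858). Old and young arrays were compared with limma 3.58.1 under R 4.3.3 by two-sided moderated tests (lmFit, then eBayes with no trend), adjusted by Benjamini-Hochberg over all kept probe sets, with a threshold of 0.05. The fit was first tested on simulated data. Figures were drawn with matplotlib 3.10.9.

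The members, lists, markers and tests were chosen with earlier results of these data known. Values on every array are given for members past the threshold, without overlap and with a change of at least 0.5, and for Cpt1a, Cpt2, Hadha, Acadvl and Ppargc1a, besides Abcd2 near background. The values of Bdh1, Hes5, Tubb3, Nkx2-2, Map2 and Foxj1 on single arrays were added after they were seen. So were the changes of Dlx2, Elavl3 and the called astrocyte markers. From each further list up to 4 called genes of smallest p are named, besides Pecr, Nrip1 and Pprc1. Alternatives were other filters, scalings, variance models and thresholds, array weights, the replicate number as a block, leaving out each array and other choices of probe set. Differences between probe sets within an array were compared by exact permutation.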

Additional observations from a re-analysis of the deposited data

How the results depend on the processing

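The 2 falls, of Cpt1c and Acsl6, passed in every fit run. The count of 14 members higher in old cells was 6 without the filter (15.4% of members against 6.2% of all probe sets), 7 with a replicate block (19.4% against 15.8%), 4 at an adjusted p under 0.01 (11.1% against 10.8%), and between 6 and 13 on leaving out 1 array, while with all arrays and settings as reported the shares were 38.9% and 20.1%. The cause of these shifts was not tested. The 6.2% without the filter was taken over all 45037 probe sets, dim ones included. Of the 39 members 36 lay above the filter, so these shares are not directly comparable. Under the other scalings, the stricter filter, array weights and without probe sets ending in _x_at or _s_at, which may read several transcripts (an alternative chosen after seeing the data), the count was again 14 (of 34 tested in the last case). In the last case Acadsb was not tested and 1 other member gained a call. With the mean of probe sets the count was 16, and with trend and robust variance 18, with 3 lower. At an adjusted p under 0.01 there were 21 other pathway genes higher and 5 lower, and 2148 probe sets higher and 1629 lower against 3995 and 3273. On leaving out 1 array the probe sets called lower numbered 2177 to 3301. Among members not called, the sign changed for Etfb (-0.0094 with array weights, and -0.029 to 0.068 on leaving out 1 array), Acat1 (-0.017 to 0.0096) and Acot7 (-0.11 to 0.016). Deviations from the group means, across kept probe sets, correlated at -0.16, -0.11 and 0.16 between old and young arrays of numbers 1, 2 and 3. Arrays of number 3 correlated best with their own number, and those of numbers 1 and 2 did not. With so few arrays this cannot show whether the replicate numbers pair them. Under the replicate block 7 member calls were lost, those of Acadm, Etfa, Etfdh, Hadha, Hadhb, Echs1 and Decr1 (adjusted p = 0.0567 to 0.0967), and 0 gained. Old values of Acsl6, Esrrb and Nrf1 and young values of Decr2, Bdh1 and Nudt7 were dim, which makes the size of those changes uncertain.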
